A study of Mus musculus with 4 samples.

Results

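The 10 genes described here take glucose into the cell and carry it to lactate. They are the glucose transporter gene Slc2a1 and the enzyme genes Hk2, Gpi1, Pfkl, Aldoa, Gapdh, Pgk1, Pgam1, Pkm and Ldha, named here in pathway order. They were chosen by symbol, and each matched 1 of the 51912 Ensembl genes in the deposited files, so all 10 were found. They were read in 4 RNA sequencing libraries of LT-HSCs, the long-term blood stem cells of the mouse. Of these, 2 were wild type (WT) and 2 were from Fam122a knockout (KO) mice, and each came from sorted cells of 3 pooled C57BL/6 mice aged 8 to 12 weeks. The sort kept cells labelled LSK CD34- Flk2-. Which allele was deleted, by what driver and in which cells is not given in the sources used here. The FAM122A protein is known to inhibit the phosphatase PP2A, and the series asked which genes it regulates in these cells.

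Glycolysis splits glucose into pyruvate in the cytosol and yields ATP without oxygen, and lactate dehydrogenase then turns pyruvate into lactate. Most of its steps run in both directions, while the steps of hexokinase, phosphofructokinase and pyruvate kinase are in effect irreversible and are the sites of control. Dormant blood stem cells sit in a marrow poor in oxygen and are known for relying on this route, and many of its genes are textbook targets of the hypoxia factor HIF-1 and of MYC. These genes are active in almost every cell, so in a bulk library they carry RNA from whichever cells are present.

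Values are FPKM, fragment counts scaled to gene length and library depth, a level per length that lets genes be set side by side. The files state no depth, and the steps between low values of single-exon genes implied about 4242477 and 2532349 fragments in WT replicates 1 and 2, and about 6828788 and 5912964 in KO. WT replicate 2 stood apart as a library of poor RNA content: unannotated loci held 53.9% of its summed FPKM, against 9.14% in WT replicate 1 and at most 1.81% in KO. The KO libraries are therefore compared with WT replicate 1, WT replicate 2 is shown separately, and the fit with all 4 libraries is given after it. Fam122a was listed at 18.4 and 7.46 FPKM in WT and at 0 in both KO libraries. The 12 neutrophil markers summed to 176542 FPKM in WT replicate 1 and to 77373 and 67323 in KO. The 12 erythroid markers summed to 51659 and to 59828 and 79689, and none of these 24 markers was at 0 in those 3 libraries. The 11 genes of the stem cell gate and identity summed to 712 FPKM in WT replicate 1 and to 603 and 570 in KO. Without Cd34 and Flt3, which the sort selects against, the other 9 summed to 507, 479 and 483 FPKM. WT replicate 1 and the KO libraries thus hold RNA of maturing blood cells beside that of the sorted cells. In WT replicate 2 the neutrophil and erythroid markers summed to only 352 and 218 FPKM. The same 9 stem cell genes summed to 424 FPKM there, with Procr and Ly6a at 0. In such bulk samples, fewer cells of a type and less RNA per cell cannot be told apart.

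In WT replicate 1 and both KO libraries, 8 of the 10 members lay at least 3 times above the median of the tested genes, while Slc2a1 and Hk2 lay near it. Their median level in FPKM was 309 in WT replicate 1, 363 in KO replicate 1 and 295 in KO replicate 2, against 14.4, 14.6 and 15.2 FPKM over the 13848 genes tested. Together they held 0.484% of the FPKM of Ensembl genes in WT replicate 1, 0.613% and 0.545% in KO, and 0.0168% in WT replicate 2. Gapdh stood first in each of the 4 libraries. In WT replicate 1, Ldha, Pkm, Aldoa, Gpi1, Pgam1, Pgk1, Pfkl, Slc2a1 and Hk2 followed in that order. In both KO libraries Pkm stood ahead of Ldha, and in KO replicate 2 Hk2 stood ahead of Slc2a1. Over those 3 libraries the ranges of Ldha and Pkm overlapped, and so did those of Aldoa and Gpi1 and those of Slc2a1 and Hk2. The other neighbours in this order did not overlap.

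**Figure D1:**
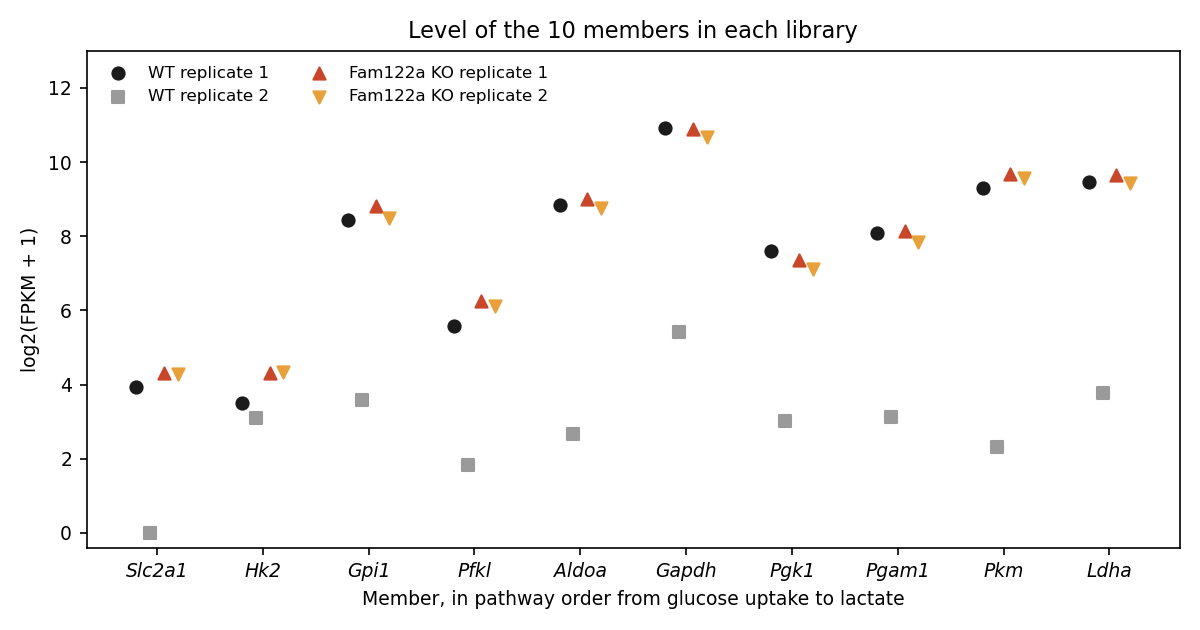
Level of each member as log2(FPKM + 1), in pathway order, with 1 point per library. WT replicate 2 lies lowest for all 10 genes, far below the rest for 9 of them, and for Hk2 it lies nearer to WT replicate 1 (7.53 against 10.3 FPKM) than that library does to KO (18.8 and 19.4 FPKM).

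The members for uptake and trapping of glucose, Slc2a1 and Hk2, were the lowest of the 10 in WT replicate 1 and KO. Gene positions are on GRCm38, from the first to the last exonic base of the annotated gene. Slc2a1 (ENSMUSG00000028645, chr4:119108711-119137983, plus strand), which encodes the transporter GLUT1, was at 14.3 FPKM in WT replicate 1 and at 18.8 and 18.6 FPKM in KO. In WT replicate 2 it was listed at 0, where 3 fragments over its longest transcript would have given 0.389 FPKM. Hk2 (ENSMUSG00000000628, chr6:82725025-82774454, minus strand), a hexokinase that phosphorylates glucose, was at 10.3 FPKM in WT replicate 1 and 7.53 in the other WT library, against 18.8 and 19.4 in KO. Both KO libraries were above both WT libraries for these genes, and KO libraries differed from each other by far less than from WT replicate 1.

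Gpi1 (ENSMUSG00000036427, chr7:34201330-34230336, minus strand), the isomerase that makes fructose 6-phosphate, was at 345 FPKM in WT replicate 1 and at 447 and 362 in KO. Pfkl (ENSMUSG00000020277, chr10:77986947-78010083, minus strand), the liver-type phosphofructokinase subunit of the main control step, was at 46.8 FPKM in WT replicate 1 and at 74.7 and 68.8 in KO. Aldoa (ENSMUSG00000030695, chr7:126795234-126800751, minus strand), the aldolase that cuts the sugar in the middle, was at 456 FPKM in WT replicate 1 and at 513 and 436 in KO. In WT replicate 2 these 3 genes were at 10.9, 2.56 and 5.4 FPKM. Gpi1 and Pfkl were thus higher in both KO libraries than in WT replicate 1, and for Aldoa WT replicate 1 lay between the KO libraries.

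Gapdh (ENSMUSG00000057666, chr6:125161715-125166467, minus strand), the dehydrogenase that makes NADH, was at 1944 FPKM in WT replicate 1 and at 1888 and 1646 in KO. Pgk1 (ENSMUSG00000062070, chrX:106187100-106203699, plus strand), the first step that returns ATP, was at 195 FPKM in WT replicate 1 and at 163 and 138 in KO. Pgam1 (ENSMUSG00000011752, chr19:41911923-41918660, plus strand), which moves the phosphate group, was at 273 FPKM in WT replicate 1 and at 280 and 228 in KO. In WT replicate 2 they were at 41.6, 7.18 and 7.79 FPKM. Gapdh and Pgk1 were lower in both KO libraries than in WT replicate 1, and for Pgam1 WT replicate 1 lay between the KO libraries.

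Pkm (ENSMUSG00000032294, chr9:59656368-59679375, plus strand), the pyruvate kinase gene of most tissues, was at 625 FPKM in WT replicate 1 and at 813 and 761 in KO. Its 2 well-known splice forms cannot be told apart in a value per gene. Ldha (ENSMUSG00000063229, chr7:46841475-46855627, plus strand), the lactate dehydrogenase subunit that favours lactate, was at 702 FPKM in WT replicate 1 and at 797 and 691 in KO. In WT replicate 2 they were at 3.96 and 12.7 FPKM. Pkm was higher in both KO libraries, and for Ldha WT replicate 1 lay between them.

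None of the 10 members passed the test between the KO libraries and WT replicate 1. The test was limma on log2(FPKM + 1), fitted to 13848 genes and called at a Benjamini-Hochberg adjusted p under 0.05, with the lone WT sample taken to have the same spread as the KO pair. Over all genes 0.181% were called higher and 1.42% lower in KO, or 25 and 196 genes. With the libraries scaled to equal sums over Ensembl genes the calls were 1134 higher and 538 lower. The smallest adjusted p among the members was 0.120, for Hk2, and the largest was 0.872. At an unadjusted p under 0.05, 2 members were higher, Hk2 and Pfkl, and 0 were lower, where 17.6% of all genes were higher and 11.5% lower. The median difference of the members was 0.15 on the log2(FPKM + 1) scale and that of all genes tested was 0.12. After scaling to equal sums these medians were 0.39 and 0.33, and under quantile normalization 0.32 and 0.11. Without KO replicate 1 they were 0.02 and 0.12, and without KO replicate 2 they were 0.28 and 0.13, so the order of members and all genes turned with 1 library. Both KO libraries were above WT replicate 1 in 5 of 10 members, against 48.5% of all genes, and below it in 2 of 10, against 35.7%. The first share is near the background, and neither is read as a result about the members. The part of the neutrophil and erythroid markers in the members' differences was not tested.

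**Figure D2:**
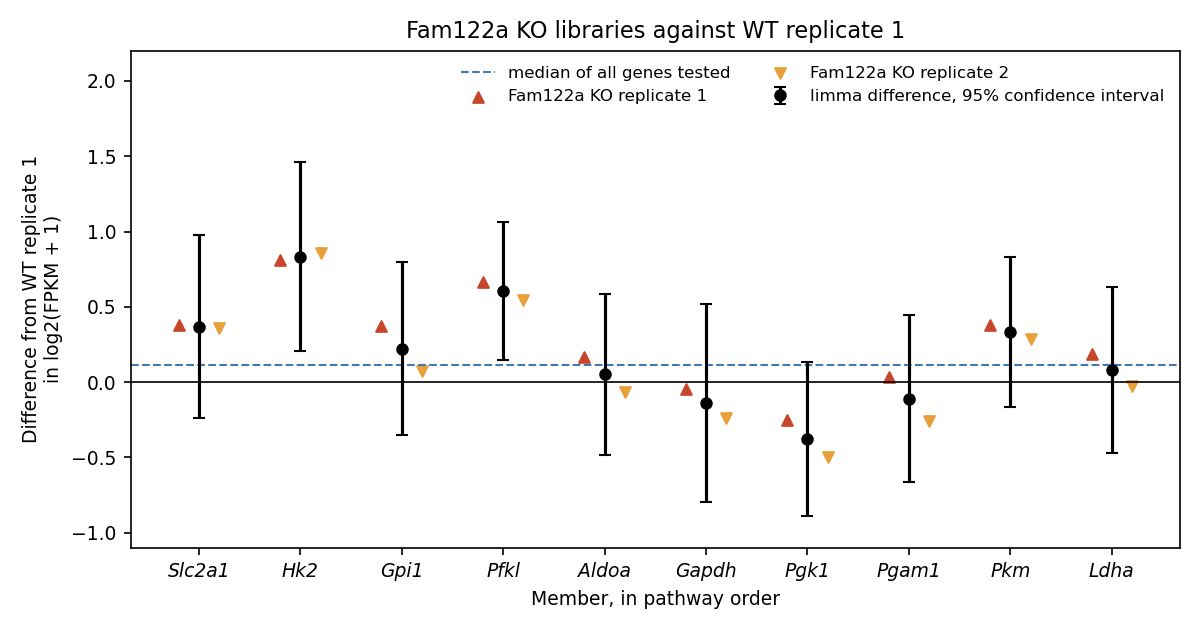
Difference from WT replicate 1 in log2(FPKM + 1) for each member in pathway order: black points are the limma difference with its 95% confidence interval, and triangles are the KO libraries singly. Hk2 (0.83) and Pfkl (0.60) lie highest and Pgk1 (-0.38) lowest, and the dashed line is the median of all genes tested (0.12).

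Hk2 had the largest difference, 0.83 (SE 0.22, 95% interval 0.21 to 1.46), or a KO mean of 19.1 FPKM ± 0.403 (SD, n = 2), 1.86 times WT replicate 1. Pfkl differed by 0.60 (SE 0.16, interval 0.14 to 1.06), with a KO mean of 71.7 FPKM ± 4.18 (SD, n = 2), 1.53 times WT replicate 1. These intervals are for 1 gene each and leave out 0, but neither gene passed after adjustment over all genes (limma adjusted p = 0.120 and 0.122). Hk2 passed with no filter on low values (limma adjusted p = 0.0378), as did Hk1, Egln2 and Mpc1. In that setting 761 of 30258 genes were called higher and 9265 lower. Pfkl passed after scaling to equal sums (limma adjusted p = 0.0496), where Hk1, Pgls, Bpgm, Egln2 and Ddit4, described further on, passed too. Slc2a1 differed by 0.37 (SE 0.21) and Pkm by 0.33 (SE 0.18). The intervals of these 2 genes, -0.24 to 0.97 and -0.17 to 0.83, hold both 0 and a difference as large as that of Pfkl.

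The other members lay closer to WT replicate 1. Gpi1 differed by 0.22 (SE 0.20), Ldha by 0.08 (SE 0.19) and Aldoa by 0.05 (SE 0.19). Pgam1 differed by -0.11 (SE 0.20), Gapdh by -0.14 (SE 0.23) and Pgk1 by -0.38 (SE 0.18). Scaling to equal sums turned Pgam1 and Gapdh to 0.12 and 0.09, and quantile normalization to 0.03 and 0.15, so their direction is not settled. Pgk1 was at -0.14 after scaling to equal sums, and at -0.50 and -0.25 with 1 KO library left out. It did not pass in any setting with a test that used WT replicate 1 as the only WT library (limma adjusted p = 0.250 to 0.609).

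Among the 10 members, the 4 largest differences were those of the genes chosen for uptake and the 3 irreversible steps. Slc2a1, Hk2, Pfkl and Pkm lay between 0.33 and 0.83 with a median of 0.49. The 6 members of the reversible steps lay between -0.38 and 0.22 with a median of -0.03. This grouping was made after the values were seen and has no test. It holds for the members, not for the steps as a whole. For uptake, the more abundant Slc2a3 differed by 0.17, Slc2a6 by -0.25 and the low Slc2a4 by 0.93. Hk1 differed by 0.84. Among other forms of the reversible steps, Ldhc and Eno3 differed by 0.81 and 0.70, and Ldhb and Eno1 by -0.74 and -0.26. Under quantile normalization the sets of members overlapped, with 0.32 to 0.82 against -0.37 to 0.44. With WT replicate 2 in place of WT replicate 1 they overlapped too, with 1.23 to 7.31 against 4.21 to 6.21.

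Shares among the members do not depend on how a library is scaled. Gapdh made up 42.2% of the summed FPKM of the 10 members in WT replicate 1 and 37.7% in each KO library. Pkm made up 13.6% in WT replicate 1 and 16.2% and 17.4% in KO, and so stood behind Ldha in WT replicate 1 and ahead of it in KO. Ldha held 15.2%, 15.9% and 15.8%. Pgk1 held 4.23% in WT replicate 1 and 3.26% and 3.15% in KO. Pfkl held 1.02% in WT replicate 1 and 1.49% and 1.57% in KO. Each of these shares differed between WT replicate 1 and KO by more than the KO libraries differed from each other, though a single WT library gives no spread of its own.

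Gapdh carries a further uncertainty. By alignment to GENCODE transcripts, 177 other genes, of which 168 are pseudogenes, matched its mRNA at 90% identity or more over at least 200 bases. Their summed FPKM was 1086 for WT replicate 1, 655 for WT replicate 2, and 848 and 736 for KO. How fragments were divided between Gapdh and these copies is not given in the sources used here. In WT replicate 1 and KO, the copies of each other member held at most 0.762% of the sum of gene and copies. The library kit does not mark strand, and Gapdh shares 68 exonic bases with Iffo1 on the opposite strand, which was at 6.11 to 12.6 FPKM in those libraries.

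WT replicate 2 was low in all members but Hk2. Its levels were a median of 2.50% of those in WT replicate 1 over the 10 members, against 23.6% over 13747 genes tested and above 0 in WT replicate 1. Of 8290 such genes at or above the lowest member in WT replicate 1, the median was 13.1%. Pkm stood at 0.633% and Aldoa at 1.18%, while Hk2 stood at 73.4%. The members' genomic spans were 1.15 to 8.35 times their exonic lengths, with Slc2a1 and Hk2 the highest at 8.35 and 8.28. The summed members came to 99.6 FPKM in this library, against 4610 in WT replicate 1 and 5013 and 4368 in KO.

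With all 4 libraries the fitted difference was above 0 for each member, against 53.1% of all genes, and 3 of them (Gapdh, Pgk1 and Pgam1) lay below 0 without WT replicate 2. The differences ran from 1.03 for Hk2 to 3.82 for Pkm with a median of 2.55, against 0.22 over 18214 genes. Of these genes limma called 0%, and of the members 0 (adjusted p = 0.382 to 0.706). At an unadjusted p under 0.05, 0 members passed, where 1.28% of all genes were higher and 21.1% lower. Both KO libraries were above both WT libraries in 5 of 10 members, against 30.8% of all genes. WT replicate 2 was the lowest library for all 10 members, so these are the same 5 that lay above WT replicate 1. There the share of all genes tested was 48.5%, and neither share is read as a result about the members. The SE of the members was 0.92 to 4.65 in this fit and 0.16 to 0.23 without WT replicate 2. With WT replicate 2 as the only WT library, all 10 members passed as higher, as did 7971 of 13875 genes.

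Most steps of glycolysis can be made by several isoenzymes from separate genes, so the members were set beside the other forms. For uptake, Slc2a3, the high-affinity transporter GLUT3, was more abundant than Slc2a1, at 66.5 FPKM in WT replicate 1 and 75.6 in the other WT library, against 73.6 and 76.1 in KO. Slc2a1 held 14.7% of the 4 transporters in WT replicate 1 and 17.6% and 16.5% in KO. Among hexokinases Hk2 was the least of 3 expressed forms: it held 7.41% in WT replicate 1 and 9.36% and 9.10% in KO. Hk3, a hexokinase of myeloid cells, held 56.8% in WT replicate 1 and 48.4% and 48.8% in KO, and Hk1, the widespread form, 34.7%, 42.2% and 42.1%. Hk1 was at 48.1 FPKM in WT replicate 1 and at 84.7 and 89.5 in KO, a difference of 0.84 (SE 0.16) that did not pass (limma adjusted p = 0.0869).

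**Figure D3:**
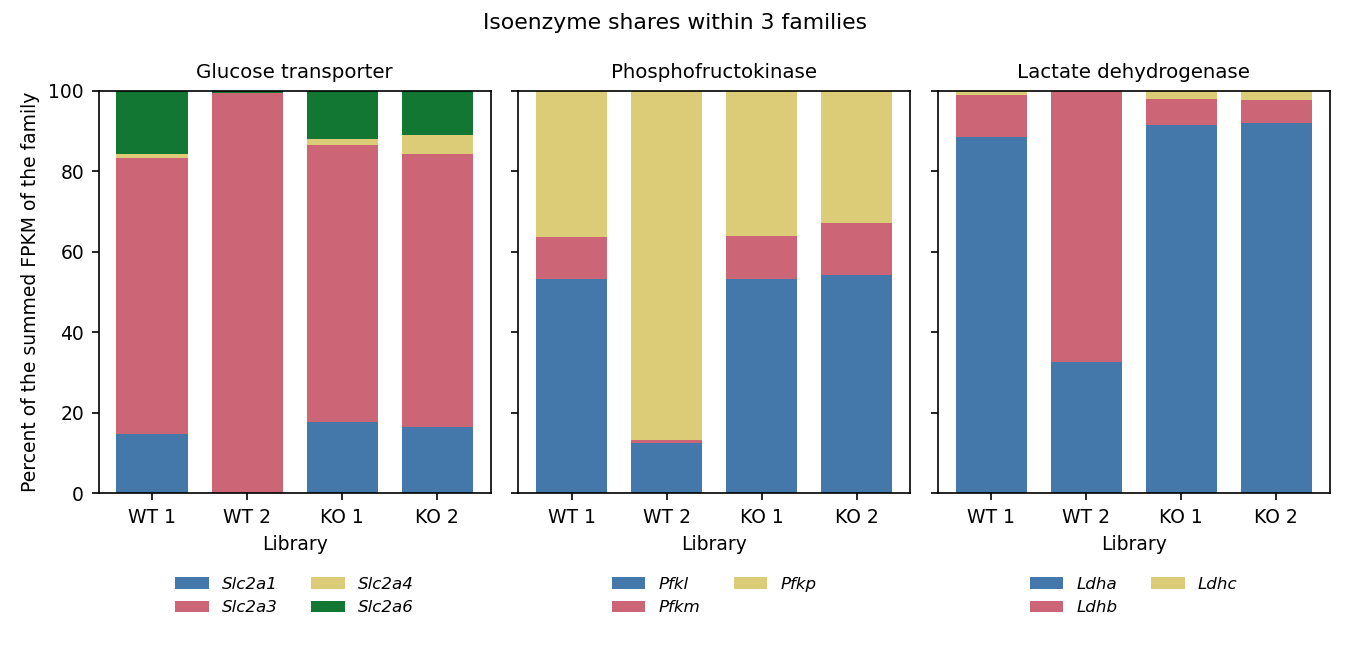
Share of each isoenzyme in the summed FPKM of its family, in percent, for 3 families (glucose transporter, phosphofructokinase and lactate dehydrogenase) and each of the 4 libraries (WT 1 and 2, KO 1 and 2). WT replicate 1 and both KO libraries have the same leading form in each of them; Ldha, for example, holds 88.4% in WT replicate 1 and 91.5% and 92.0% in KO, and 32.7% in WT replicate 2.

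Further down, the same form led in WT replicate 1 and in both KO libraries for phosphofructokinase, aldolase, phosphoglycerate kinase, phosphoglycerate mutase, pyruvate kinase and lactate dehydrogenase. Pfkl held 53.2% of the phosphofructokinase FPKM in WT replicate 1 and 53.3% and 54.2% in KO, with Pfkp, the platelet form, second at 32.8% to 36.5%. Its share thus stayed level while the family sum was 88.0 FPKM in WT replicate 1 and 140 and 127 in KO. Aldoa held 97.9% to 98.4% of aldolase, Pgk1 at least 99.7% of phosphoglycerate kinase and Pgam1 at least 99.5% of phosphoglycerate mutase in these 3 libraries. Pkm held at least 99.6% of pyruvate kinase, with Pklr, the form of liver and red cells, at 0.83 to 2.74 FPKM. Ldha held 88.4% of lactate dehydrogenase in WT replicate 1 and 91.5% and 92.0% in KO. Ldhb, which favours pyruvate, was at 82.9 FPKM in WT replicate 1 and at 56.2 and 43.0 in KO (difference -0.74, SE 0.23, limma adjusted p = 0.142).

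No gene of the 5 lists around the members passed the test either. Of 26 genes for other steps and isoenzymes, 20 were tested against WT replicate 1. In this list 15 were above 0 and 5 below, with a median difference of 0.41, and 0 were called in either direction. Over all genes tested 56.1% were above 0, the background for this and the next lists. Tpi1, which fills the step after Aldoa, was at 254 FPKM in WT replicate 1 and at 300.3 and 242 in KO. Eno1, which fills the step before Pkm, was at 545 FPKM there and at 477 and 437 in KO. Bpgm, which makes the red-cell effector 2,3-bisphosphoglycerate, was at 71.9 FPKM in WT replicate 1 and at 104 and 109 in KO. Slc16a1, a lactate and pyruvate carrier, was at 25.97 FPKM in WT replicate 1 and at 38.1 and 60.9 in KO. The summed erythroid markers given above were also higher in KO, and their part in Bpgm and in Hk1 was not tested. The summed neutrophil markers were lower, and their part in Hk3 was not tested. The 12 markers of dividing cells summed to 1108 FPKM in WT replicate 1 and to 1366 and 1730 in KO, and their part in Hk2 and Pfkl was not tested.

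**Figure D4:**
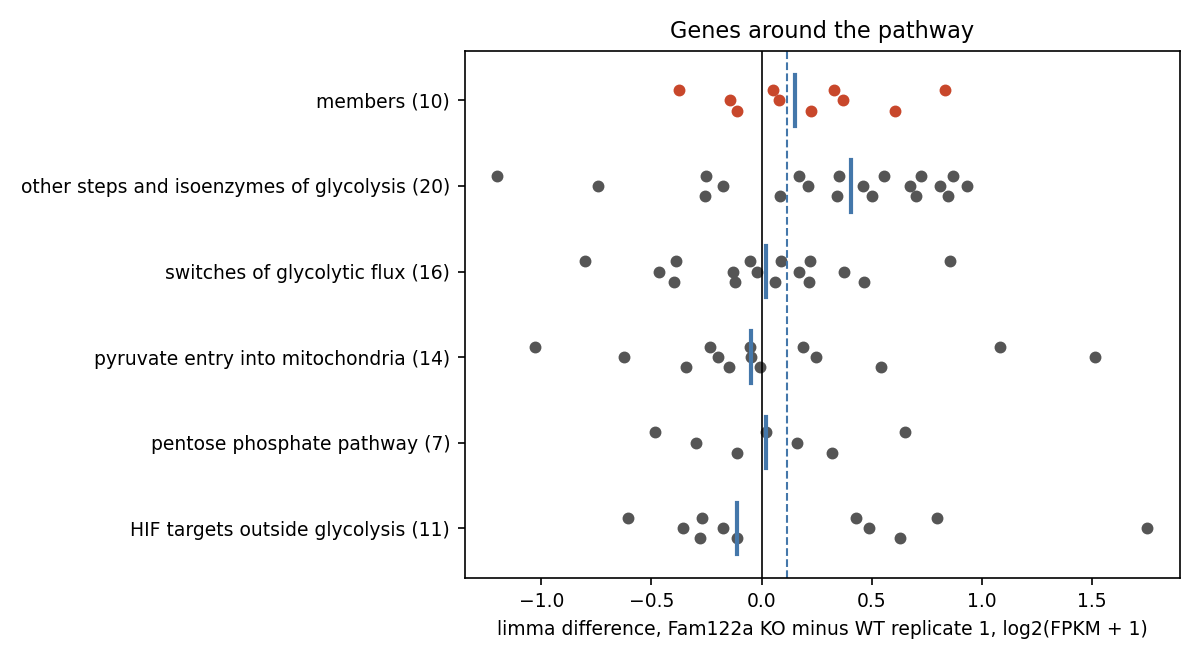
Difference between KO and WT replicate 1 in log2(FPKM + 1) for each tested gene (points) of the members and of 5 lists around them, with the number tested in brackets and the list median as a blue bar. The medians run from -0.11 (HIF targets) to 0.41 (other steps and isoenzymes), and the dashed line is the median of all genes tested (0.12).

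At the gate to the mitochondrion, 5 of 14 tested genes were above 0 and 9 below, with a median of -0.05 and 0 called. Mpc1 and Mpc2 encode the pyruvate carrier of the inner membrane. Mpc1 was at 222 FPKM in WT replicate 1 and at 142 and 146 in KO (difference -0.62, SE 0.15). Mpc2 was at 107 FPKM in WT replicate 1 and at 54.0 and 49.9 in KO (-1.03, SE 0.16). Pdk2, a kinase that shuts pyruvate dehydrogenase, was at 8.89 FPKM in WT replicate 1 and at 23.0 and 17.3 in KO (1.08, SE 0.28). None of these 3 genes passed (limma adjusted p = 0.105, 0.0762 and 0.117). With WT replicate 2 in place of WT replicate 1, Mpc1 and Mpc2 turned to 3.09 and 2.002. For the dehydrogenase complex itself, Pdha1, Pdhb, Dlat, Dld and Pdhx differed by -0.05, -0.20, 0.25, -0.23 and 0.19. Pdha1, the closest of them to WT replicate 1, was at 47.8 FPKM there and at 47.1 and 45.1 in KO.

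The pentose phosphate pathway, which branches off after hexokinase, had 4 of 7 genes above 0 and 3 below, with a median of 0.02 and 0 called. Its entry enzyme gene G6pdx was at 238 FPKM in WT replicate 1 and at 269 and 217 in KO. Pgls, the next step, was at 129 FPKM in WT replicate 1 and at 191 and 217 in KO (0.65, SE 0.17, limma adjusted p = 0.115).

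The regulators of the pathway also gave 0 calls. Of 18 switches of flux 16 were tested, with 8 above 0, 8 below and a median of 0.02. Hif1a, the oxygen-regulated subunit of HIF-1, was at 32.8 FPKM in WT replicate 1 and at 41.8 and 29.3 in KO. Arnt, its partner, was at 72.6 FPKM in WT replicate 1 and at 38.9 and 43.6 in KO (-0.80, SE 0.17, limma adjusted p = 0.0976). Egln2, an oxygen-sensing hydroxylase of HIF, was at 23.9 FPKM in WT replicate 1 and at 44.1 in each KO library (0.86, SE 0.17, adjusted p = 0.0916). Myc was at 82.3 FPKM in WT replicate 1 and at 92.8 and 98.5 in KO, and Meis1, a stem cell factor known to act on Hif1a, was at 60.2, 56.5 and 53.6 FPKM. Of 12 HIF targets outside glycolysis 11 were tested, with 5 above 0, 6 below and a median of -0.11. Ddit4, an inhibitor of mTOR signalling, was at 3.41 FPKM in WT replicate 1 and at 11.8 and 16.3 in KO (1.75, SE 0.33, adjusted p = 0.0887). Vegfa was at 11.7 FPKM in WT replicate 1 and at 19.0 and 23.1 in KO, while Bnip3l was at 284, 228 and 216 FPKM.

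These factors act through short DNA words. The promoters of 3 members are shown with ACGTG, a form of the core of the HIF site, read on either strand, in capitals. CACGTG, the E-box read by MYC, contains that core on both strands. Each is the 250 bases upstream of a RefSeq start on GRCm38, written 5′ to 3′ along the gene's strand. Hk2 (chr6:82774455-82774704, minus strand) is the member with the largest difference, Pgk1 (chrX:106186850-106187099, plus strand) the one with the lowest, and Ldha (chr7:46845554-46845803, plus strand) the only one with an E-box.
Hk2: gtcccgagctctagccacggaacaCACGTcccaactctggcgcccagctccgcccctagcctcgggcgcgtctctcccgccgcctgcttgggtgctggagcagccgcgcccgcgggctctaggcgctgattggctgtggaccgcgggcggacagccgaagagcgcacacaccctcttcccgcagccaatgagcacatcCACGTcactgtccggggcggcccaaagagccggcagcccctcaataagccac
Pgk1: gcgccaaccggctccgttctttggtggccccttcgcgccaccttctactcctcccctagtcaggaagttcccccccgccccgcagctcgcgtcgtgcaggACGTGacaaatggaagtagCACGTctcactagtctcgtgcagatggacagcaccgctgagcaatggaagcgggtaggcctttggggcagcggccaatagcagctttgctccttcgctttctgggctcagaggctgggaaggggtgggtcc
Ldha: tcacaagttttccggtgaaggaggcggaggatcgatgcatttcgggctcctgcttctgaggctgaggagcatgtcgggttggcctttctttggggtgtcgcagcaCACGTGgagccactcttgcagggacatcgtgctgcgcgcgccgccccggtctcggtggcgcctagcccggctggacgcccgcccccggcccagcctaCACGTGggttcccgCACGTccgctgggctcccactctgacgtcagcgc
Hk2 and Pgk1 hold the core 2 times each, and Ldha holds it in 3 places, of which 2 are full E-boxes. The core occurred upstream of 7 of 10 members, against 18.5% of 27025 genes and 24.9% of the 10033 tested genes with a window. The members have 1.4 windows per gene and all genes 1.22, and 2 windows of Aldoa overlap and share 1 core. The exceptions were Gpi1, Pfkl and Gapdh. The related word GCGTG, which the windows of Pfkl and Gapdh hold, was not counted in the members or in the background. CACGTG occurred in 1 of 10 members, in 6.86% of all genes and in 9.81% of the tested genes. A match describes the letters only, and the members with the core include both the largest and the lowest difference between KO and WT replicate 1.

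The genes whose profile over the 4 libraries lay nearest to the median profile of the members were Nrm, Rgcc, Aurkaip1, Nme3 and Neurl3, out of 9143 coding genes with a mean of at least 10 FPKM. Their distances were 0.0868 to 0.1002 on the centred log2(FPKM + 1) scale. Nrm, for example, was at 71.1 and 1.27 FPKM in WT and at 76.7 and 64.9 in KO. With only 4 points, of which WT replicate 2 lies farthest from the rest, this likeness says only that each is low in that library and nearly level over the others.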

How the data were processed

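The authors deposited 1 value per feature and library without a header, read here as FPKM from the values. Per the submitters' processing notes, STAR 2.7.1a, HISAT2 2.1.0 and the builds GRCm38.p5 and mm10 were used. The sources used here do not name the tool that made the values. There were 87703 features per file. The 35791 MSTRG loci, which name no gene, stayed out of the tests. Symbols and coordinates came from GENCODE M21 (GRCm38), and promoters from RefSeq GRCm38.p6.

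Depth was the fragment number that put 81.4% to 89.0% of low values of single-exon genes within 0.1 of a whole number. It is an estimate. The test was limma 3.58.1 with its intensity trend, run in R 4.3.3 on log2(FPKM + 1), a scale that understates differences of low genes. Genes needed 1 FPKM in at least 2 fitted libraries. Copies were sought with BLAST 2.17.0. The fit against WT replicate 1 was tested on simulated data with the spread of the KO pair, with 50 genes changed at each size. It called 10% of those changed by 0.5 on the log2 scale, 62% at 1, and 100% at 2 and at 3, with 7 false calls. Differences of the size seen in the members can thus be missed. The members and lists were chosen with earlier results of these data known. All members were named, with genes of the lists and the 5 nearest profiles; the nearest profiles came from a fixed distance rule. Groups were taken from the labels. Against WT replicate 1, p-values rest on the spread between the 2 KO pools of 3 animals, with none measured for WT. With all 4 libraries they also take in the gap between WT replicate 1 and the poor WT replicate 2. Alternatives covered pseudocount, filter, scaling, trend, replicate block and libraries left out.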

Additional observations from a re-analysis of the deposited data

How the results depend on the processing

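Against WT replicate 1, the median difference of the members moved from 0.15 to 0.39 with equal sums over Ensembl genes, to 0.32 with quantile normalization and to 4.96 with WT replicate 2 in its place, and leaving out 1 KO library gave 0.024 to 0.28. The members past the threshold moved from 0 to 1 with no filter (Hk2), 1 with equal sums (Pfkl) and 10 with WT replicate 2 in place. Over all genes, 25 higher and 196 lower became 0 and 0 with a pseudocount of 0.1, with the filter at 5 FPKM and without the trend. They became 101 and 524 with a pseudocount of 5, 1134 and 538 with equal sums, and 81 and 382 with equal medians. With no filter they became 761 and 9265, out of 30258 genes tested. Equal sums outside blood cell genes gave 292 and 445, quantile normalization 15 higher, and WT replicate 2 in place 7971 and 3155. Leaving out 1 KO library gave Aldoa at -0.066 to 0.17, Ldha at -0.022 to 0.18 and Pgam1 at -0.26 to 0.036. These fits of 1 library a group have no test. Gapdh and Pgam1 turned to 0.094 and 0.12 with equal sums and to 0.15 and 0.033 with quantile normalization. With WT replicate 2 in place, Gapdh, Pgk1, Pgam1, Ldhb, Mpc1 and Mpc2 turned to 5.37, 4.21, 4.85, 0.89, 3.09 and 2.002. The cause of these turns was not tested.

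With all 4 libraries, leaving out 1 library gave 0 to 10 members past the threshold, 0 to 7971 genes higher and 0 to 3155 lower. The highest counts came without WT replicate 1; without WT replicate 2, 25 were higher and 196 lower, and Gapdh, Pgk1 and Pgam1 turned to -0.14, -0.38 and -0.11. Same-numbered libraries share only a number: their deviations correlated at 0.055 over 18214 genes. With the replicate block 0 members and 0 genes passed (median of the members 2.55, smallest adjusted p over all genes 0.110), as without it. In the isoenzyme shares of Hk2, Slc2a1, Ldha and Pfkl, leaving out either KO library turned no direction. Depth limits WT replicate 2 most, where the members rested on an estimated 0 to 324 fragments each, against 182 or more in the other libraries.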

Other observations

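Pgk2, the single-exon phosphoglycerate kinase gene of sperm cells, stood at 12.2 FPKM in WT replicate 2, against 0.52 in WT replicate 1, and was listed at 0 in KO. In WT replicate 2 Ldhb held 67.3% of lactate dehydrogenase and Pfkp 86.8% of phosphofructokinase. Of the summed FPKM of Slc2a1, Slc2a3, Slc2a4 and Slc2a6, Slc2a3 held 99.4% there, and other sugar transporters were not read. The copies of Pkm and Ldha summed to 22.2 and 15.0 FPKM in WT replicate 2, above the genes themselves at 3.96 and 12.7 FPKM.

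Within the monocarboxylate carriers, Slc16a7 was at 20.0 and 20.9 FPKM in WT and at 6.58 and 9.99 FPKM in KO, and so was lower in both KO libraries than in both WT libraries. It held 21.9% of the 3 carriers in WT replicate 1 and 7.29% and 7.58% in KO. Its genomic span is 14.4 times its exonic length, more than any member. The difference did not pass against WT replicate 1 (-1.20, SE 0.34, limma adjusted p = 0.130) or with all 4 libraries (-1.23, adjusted p = 0.439).

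Pdk3 was the leading pyruvate dehydrogenase kinase in each library. It held 69.2% of the 4 kinases in WT replicate 1 and 49.6% and 51.6% in KO, where Pdk2 held 9.77%, 23.7% and 17.6%.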
